A study of Drosophila melanogaster with 12 samples.

Results

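The antimicrobial peptide genes *AttA*, *AttB*, *AttC*, *AttD*, *DptB*, *Dro*, *Drs*, *Def*, *Mtk* and *CecA1* of *D. melanogaster* were followed in pupal legs of 2 strains. They were chosen by name, as rows of the deposited expression tables that carry 1 of these 10 symbols, alone or joined with others, among 17592 gene symbols found in every library. The strains were eworo, which carries *ebony*[4], *white ocelli*[1] and *rough*[1] and has a large naked valley (a patch of leg cuticle without trichomes), and Oregon R (OreR), whose naked valley is small. Flies of both strains were raised at 25 °C and received no infection or other treatment named in the labels, and second (T2) legs were dissected at 20 to 28 hours after puparium formation. Each strain had 3 RNA-Seq libraries and 3 ATAC-Seq samples, with legs of about 80 pupae in a replicate. The strains differ in their whole genetic background as well as in the named alleles, so a difference between them cannot be assigned to any allele, and p-values measure the spread between these libraries, which are not stated to be independent collections.

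Antimicrobial peptides are small, mostly cationic, secreted proteins that damage the envelopes of bacteria or fungi. In flies they are induced through the Imd pathway, which ends in the NF-κB protein Relish, and the Toll pathway, which ends in Dorsal and Dif. The fat body releases them into the haemolymph after systemic infection, haemocytes make some of them, and epithelia that face the outside can express single members locally.

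Expression was given as FPKM, fragments scaled to the length of the transcript and to the mapped fragments of the library, estimated for each library on its own by Cufflinks. An exact 0 in such a table can be a failed estimate, and genes that overlap or lie close together can be joined in 1 entry. Of the 10 genes, 7 had an entry of the same name in all 6 libraries and a mean above 1 FPKM, and they were compared among 4848 such entries. The *CecA1* entry holds *CecA1*, *CecA2* and *CecC* together. *Drs* was joined with *Drsl5* in all libraries and with *Drsl2* as well in eworo replicates 1 and 3, so it was described but not compared in the same way. *AttA* and *AttB* shared an entry that was listed at 0 in all 6 libraries. The confidence limits in the files imply, as an approximation, from 3 fragments (*Mtk* in OreR replicate 1) to 1330 fragments (*Drs*) behind a single value. Libraries correlated with r of 0.947 to 0.958 within eworo and 0.963 to 0.986 within OreR, and with r of 0.921 to 0.965 between strains, so that libraries of a strain were not always the most alike. Entries without a gene name took from 0.777% of the summed FPKM in eworo replicate 3 to 27.9% in OreR replicate 2, and scaling by the median of ratios, which does not follow such entries, moved no library by more than a factor of 1.01. Of the epidermal genes *Dll*, *kkv*, *grh*, *obst-B* and *shg*, all 5 had an entry above 20 FPKM in every library, that of *grh* being joined with *Dhit*.

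**Figure D1:**
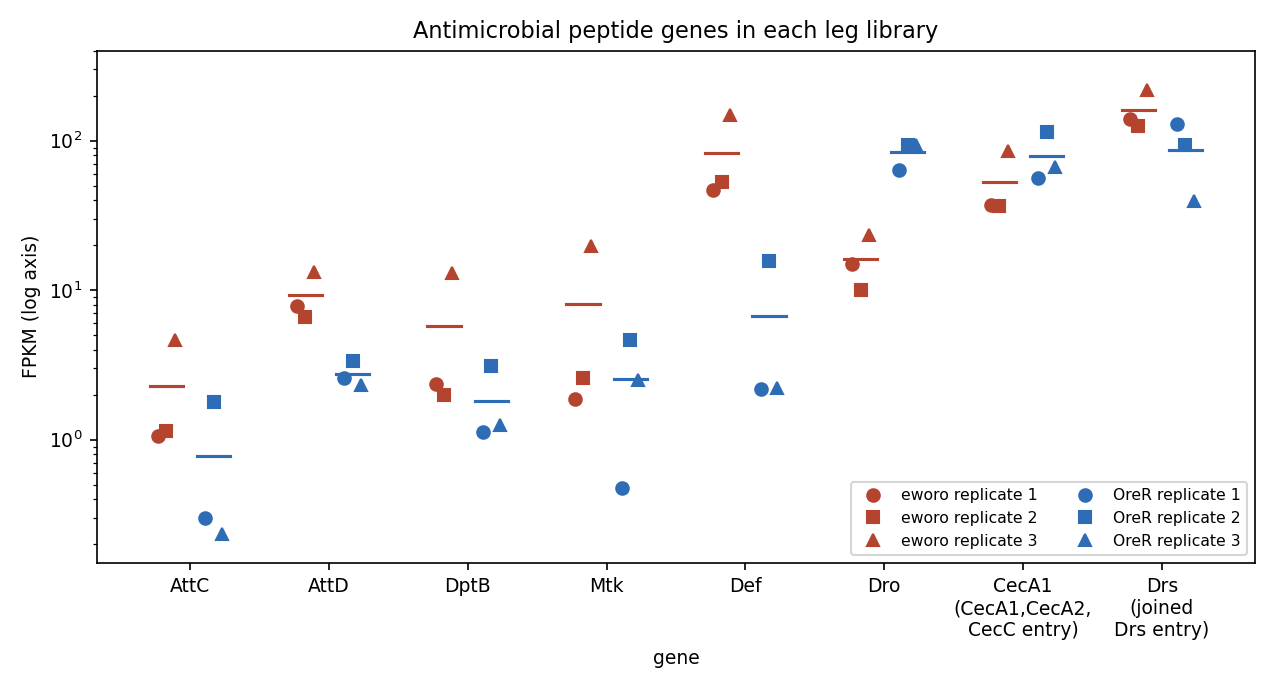
FPKM of 8 antimicrobial peptide genes (log axis) in each library, with eworo (red) left of OreR (blue), 1 symbol per replicate and a line at the mean of the 3 libraries. Libraries of the strains do not overlap for *AttD*, *Def* and *Dro*, and eworo replicate 3 is the highest eworo library for every gene drawn.

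Most of these genes were expressed in legs for which the labels name no infection, and their levels spanned a wide range. In eworo legs the order of mean FPKM was the *Drs* entry (161 ± 51.0, SD, n = 3), *Def* (82.7 ± 57.3), the *CecA1* entry (52.9 ± 27.7), *Dro* (16.1 ± 6.64), *AttD* (9.26 ± 3.57), *Mtk* (8.04 ± 10.1), *DptB* (5.80 ± 6.26) and *AttC* (2.28 ± 2.04). Neighbours in this order overlapped in their libraries, apart from the *CecA1* entry and *Dro*. In OreR legs the *Drs* entry (87.4 ± 44.8), *Dro* (83.9 ± 17.4) and the *CecA1* entry (79.1 ± 31.1) led and did not differ beyond their spread, ahead of *Def* (6.69 ± 7.77), *AttD* (2.77 ± 0.534), *Mtk* (2.54 ± 2.08), *DptB* (1.82 ± 1.10) and *AttC* (0.778 ± 0.886), whose libraries overlapped from each to the next.

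*Dro* was the only member that passed the test between strains, and it fell in eworo. *Dro* (FBgn0010388, 2R, 14745961 to 14746714 in Release 6) encodes Drosocin, a proline-rich peptide active against Gram-negative bacteria. It stood at 15.0, 10.1 and 23.2 FPKM in eworo replicates 1, 2 and 3, against 63.8, 93.7 and 94.2 FPKM in the OreR libraries. All eworo libraries lay below all OreR libraries. The log2 difference of FPKM + 1 was -2.36 ± 0.33 (SE; limma, adjusted p = 0.0313 over 4848 entries). Among all entries 0.908% were called lower in eworo and 1.73% higher. The call held without eworo replicate 2 (limma adjusted p = 0.0431) and without eworo replicate 3 (0.0326), and was lost without each of the others. The limma adjusted p was 0.129 without eworo replicate 1, 0.0705 without OreR replicate 1, 0.0954 without OreR replicate 2 and 0.125 without OreR replicate 3, while the log2 difference stayed between -2.65 and -2.09. It was also lost with no filter on low values (0.0938). The exact permutation test gave p = 0.1, the smallest that 3 libraries against 3 allow.

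*Def* had the widest contrast and ran the other way. It encodes Defensin (FBgn0010385, 2R, 10054178 to 10054576), a disulphide-bonded peptide active mainly against Gram-positive bacteria. Its FPKM were 46.7, 52.6 and 149 in eworo, against 2.195, 15.7 and 2.21 in OreR. The strains did not overlap, but both held a library that stood high, replicate 3 in eworo and replicate 2 in OreR. The ratio of the means was 12.4 and the log2 difference 3.71 ± 0.82 (SE), with an adjusted p of 0.111 by limma, so *Def* did not pass. Without OreR replicate 2 it did (log2 difference 4.51, limma adjusted p = 0.0421), and it was then the only member called. With both high libraries left out, a choice made after the data were seen, it passed as well (3.98, limma adjusted p = 0.0134), whereas *Dro* did not (-2.56, limma adjusted p = 0.0927).

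The attacins are glycine-rich peptides that act on Gram-negative bacteria. *AttD* (FBgn0038530, 3R, 17625268 to 17626086), whose product lacks a signal peptide unlike the other attacins, had 7.80, 6.65 and 13.3 FPKM in eworo, against 2.60, 3.37 and 2.34 FPKM in OreR. Here too the strains did not overlap, and the log2 difference of 1.40 ± 0.28 (SE) had an adjusted p of 0.0869 by limma. Complete separation as such was common: 12.6% of entries had all eworo libraries above all OreR libraries, as *Def* and *AttD* did among the 7 members, and 10.6% had them all below, as *Dro* did. *AttC* (FBgn0041579, 2R, 13393705 to 13394667) was low, at 1.06, 1.14 and 4.64 FPKM in the eworo libraries, against 0.301, 1.80 and 0.234 in the OreR libraries. Its strains overlapped through OreR replicate 2, and the log2 difference of 0.82 ± 0.55 (SE) did not pass (limma adjusted p = 0.487).

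*AttA* (FBgn0012042, 2R, 14747362 to 14748215) and *AttB* (FBgn0041581, 2R, 14749223 to 14750165) lie beside *Dro* on the same chromosome arm. In the authors' Cuffdiff table, which gives 1 FPKM per strain with no replicate values, *AttA* was at 3.67 in eworo and 3.67 in OreR, and *AttB* at 1.55 in eworo and 5.49 in OreR. The 0 in the library files was therefore not a level that the other table shared. For *Dro* that table gave 7.66 in eworo and 37.6 in OreR, lower than the library means in both strains. For *AttD* the tables were close, with 9.26 in eworo and 2.79 in OreR in the authors' table. Levels were not set across tables.

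*DptB*, *Mtk* and the *CecA1* entry did not pass. *DptB* (FBgn0034407, 2R, 18867391 to 18867895) encodes Diptericin B, a glycine-rich peptide of the Imd response. It had 2.37, 2.00 and 13.03 FPKM in eworo, against 1.13, 3.09 and 1.24 FPKM in OreR (log2 difference 0.95 ± 0.68 SE, limma adjusted p = 0.509). *Mtk* (FBgn0014865, 2R, 15408846 to 15409113) encodes Metchnikowin, which acts on fungi and bacteria and answers to both pathways. It had 1.88, 2.59 and 19.6 FPKM in eworo, against 0.478, 4.63 and 2.51 FPKM in OreR (log2 difference 0.96 ± 0.92 SE, limma adjusted p = 0.589). In both genes eworo replicate 3 alone stood above every OreR library. Without it the *Mtk* difference was 0.06 and that of *DptB* 0.24.

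The cecropins are helical peptides that form pores in bacterial membranes. The *CecA1* entry (*CecA1*, FBgn0000276, 3R, 30210874 to 30211273) had 37.4, 36.4 and 84.9 FPKM in eworo, against 56.4, 115 and 66.4 FPKM in OreR (log2 difference -0.61 ± 0.43 SE, limma adjusted p = 0.508). The authors' table, where *CecC* was separate, placed most of this level in *CecC*, at 46.1 in eworo and 64.9 in OreR. There *CecA1* with *CecA2* had 11.8 in eworo and 17.0 in OreR, so the entry is not a reading of *CecA1* alone.

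*Drs* (FBgn0283461, 3L, 3369556 to 3369942) encodes Drosomycin, an antifungal peptide and the usual readout of Toll signalling. Its joined entry had 139, 126 and 220 FPKM in eworo, against 129, 93.9 and 39.7 FPKM in OreR, with overlap between eworo replicate 2 and OreR replicate 1. When every gene took the value of its entry, the log2 difference was 0.98 ± 0.50 (SE, limma adjusted p = 0.485). The authors' table, where the genes were separate, placed most of this level in *Drsl5*, at 111 in eworo and 57.2 in OreR, rather than in *Drs*, at 32.5 in eworo and 15.5 in OreR. Among the OreR libraries the *Drs* entry was highest in replicate 1, as none of the compared members was.

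**Figure D2:**
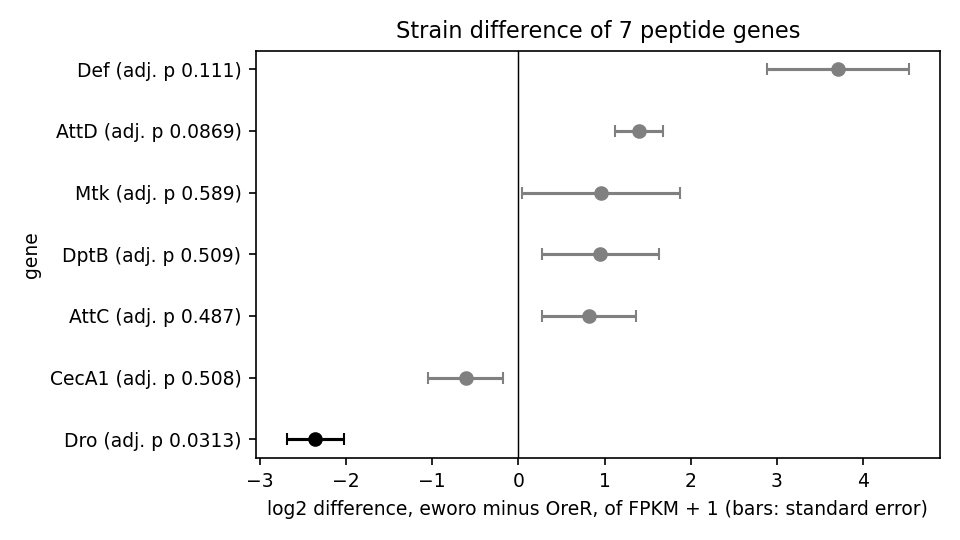
Log2 difference of FPKM + 1, eworo minus OreR, for the 7 compared genes, with the standard error as a bar and the limma adjusted p over 4848 entries beside each name. *Dro* (black) is the only gene past the threshold of 0.05, *Def* and *AttD* have the highest positive values, and the *CecA1* entry lies on the side of *Dro*.

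Taken by strain, the family did not move as 1 group. Of the 7 compared members 5 had a fitted difference above 0 and 2 below, with a median of 0.95. Over all 4848 entries 2357 were above 0 and the median was -0.01. Of the 7 members 1 was called, lower in eworo, beside 0.908% of entries called lower and 1.73% called higher.

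Across libraries, by contrast, most of the 7 genes stood highest in the same library of each strain. Replicate 3 was the highest eworo library for 7 of 7 members, against 24.5% of all entries, and replicate 2 the highest OreR library for 6 of 7, *Dro* being the exception, against 38.3% of entries. Both held for 6 of 7 members and for 10.7% of entries. These libraries were picked out from the same values, so the counts are a description and not a test. *AttC* had a mean above 1 FPKM only through eworo replicate 3 (4.64 FPKM), so its place in the count for that library was fixed by the filter. The same limit bears on its step in that library and on its pairs below. The size of the step differed between genes: eworo replicate 3 stood above the mean of the other eworo libraries by a ratio of 8.79 for *Mtk*, 5.97 for *DptB*, 4.22 for *AttC*, 2.99 for *Def* and 2.30 for the *CecA1* entry, but 1.85 for *Dro* and 1.84 for *AttD*. OreR replicate 2 stood above the mean of the other OreR libraries by a ratio of 7.11 for *Def*, 6.74 for *AttC*, 3.10 for *Mtk*, 2.60 for *DptB* and 1.87 for the *CecA1* entry, but 1.36 for *AttD* and 1.19 for *Dro*. A step of at least 2-fold over each other library of the strain was found for 5 of 7 members in eworo replicate 3, against 3.51% of entries, and for 3 of 7 in OreR replicate 2, against 1.46% of entries. *Dro* and *AttD*, which differed between strains without overlap, were thus among the genes that varied least within a strain, while *Def* did both.

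**Figure D3:**
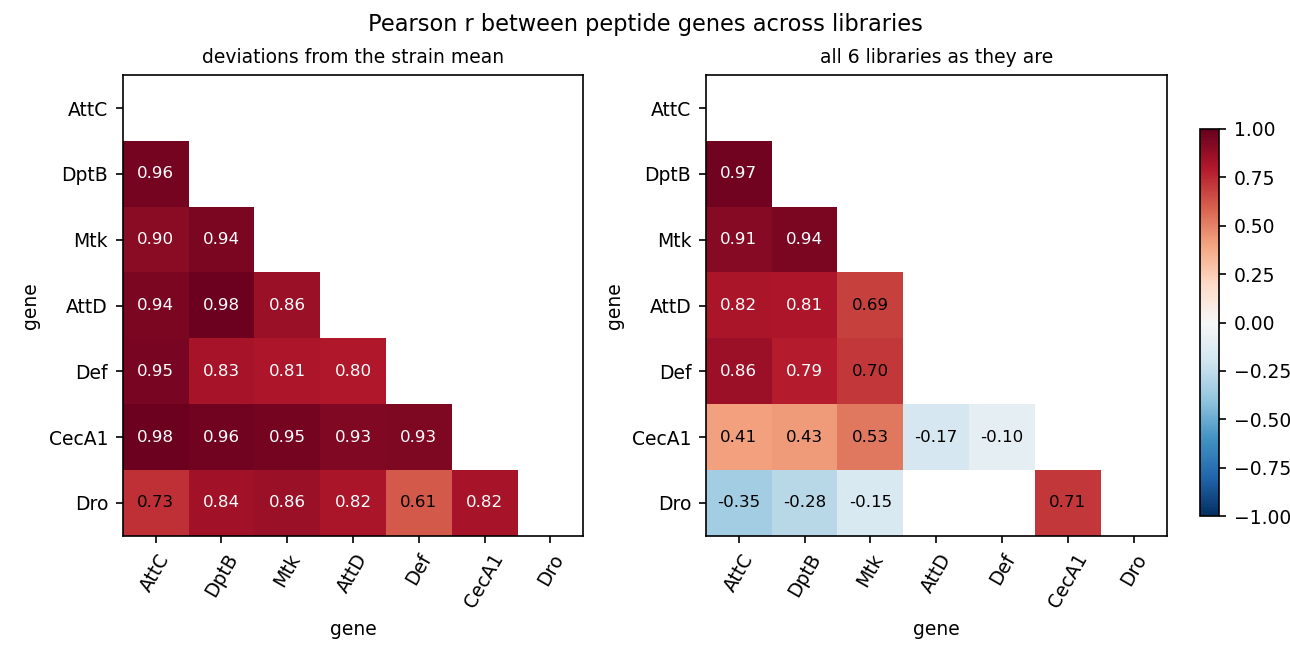
Pearson r of log2(FPKM + 1) for pairs of the 7 genes, after subtraction of the strain means (left) and over the 6 libraries as they are (right, with the 3 pairs whose 2 genes both separate the strains left blank). All pairs are positive on the left, whereas on the right *Dro* is negative with *AttC*, *DptB* and *Mtk*, the *CecA1* entry is negative with *AttD* and *Def*, and these 2 entries are positive with each other.

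After subtraction of strain means, all 21 pairs of the 7 genes were positive (0.61 to 0.98, median 0.904), and 11 of the 21 reached 0.9, beside 3.76% of all pairs of entries, whose median was 0.01. Several of the pairs at 0.9 hold *AttC*, which passed the filter only through eworo replicate 3, such as *AttC* with the *CecA1* entry (0.984). Pairs without *AttC* reached 0.9 as well, such as *AttD* with *DptB* (0.983). Over the 6 libraries as they are, the median of the 18 pairs whose genes do not both separate the strains was 0.695, and 3 of the 18 reached 0.9, beside 2.74% of all pairs of entries. That share, unlike the 18, still holds pairs whose genes both separate the strains, so the sets are not alike. With the other 3 pairs included the median was 0.687. The closest pair was *AttC* with *DptB* (Pearson r = 0.968, exact permutation p = 0.00556, Spearman rho = 0.886, exact permutation p = 0.0333). Its r was 0.976 without eworo replicate 3 and OreR replicate 3, the libraries farthest from the median of *AttC*. *DptB* with *Mtk* had r = 0.944 (exact permutation p = 0.00972, rho = 0.829, exact permutation p = 0.0583) and 0.545 without eworo replicate 3 and OreR replicate 1, so that it rested largely on those libraries. Over the 21 pairs no p stayed below 0.05 after Benjamini-Hochberg adjustment, the lowest being 0.0583 by exact permutation for r, 0.240 for rho and 0.137 for permutation within strains, where 0.0278 is the smallest unadjusted p possible.

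The readings differed for *Dro* and the *CecA1* entry. Within strains *Dro* was positive with the other 6 genes (0.61 to 0.86), while over all libraries it was at -0.35 with *AttC*, -0.28 with *DptB* and -0.15 with *Mtk*, none of which differed from 0 by the exact permutation test (p = 0.501, 0.726 and 0.817). The *CecA1* entry had r of 0.927 with *AttD* and 0.934 with *Def* within strains, and -0.168 with *AttD* and -0.099 with *Def* over all libraries (exact permutation p = 0.715 and 0.814). For *Dro* with *AttD* or *Def* no pooled value is given, as both genes of such a pair separate the strains. Leaving out eworo replicate 3 lowered the median r over all pairs to 0.420, and leaving out OreR replicate 2 as well, a choice made after the data were seen, lowered it to 0.404.

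**Figure D4:**
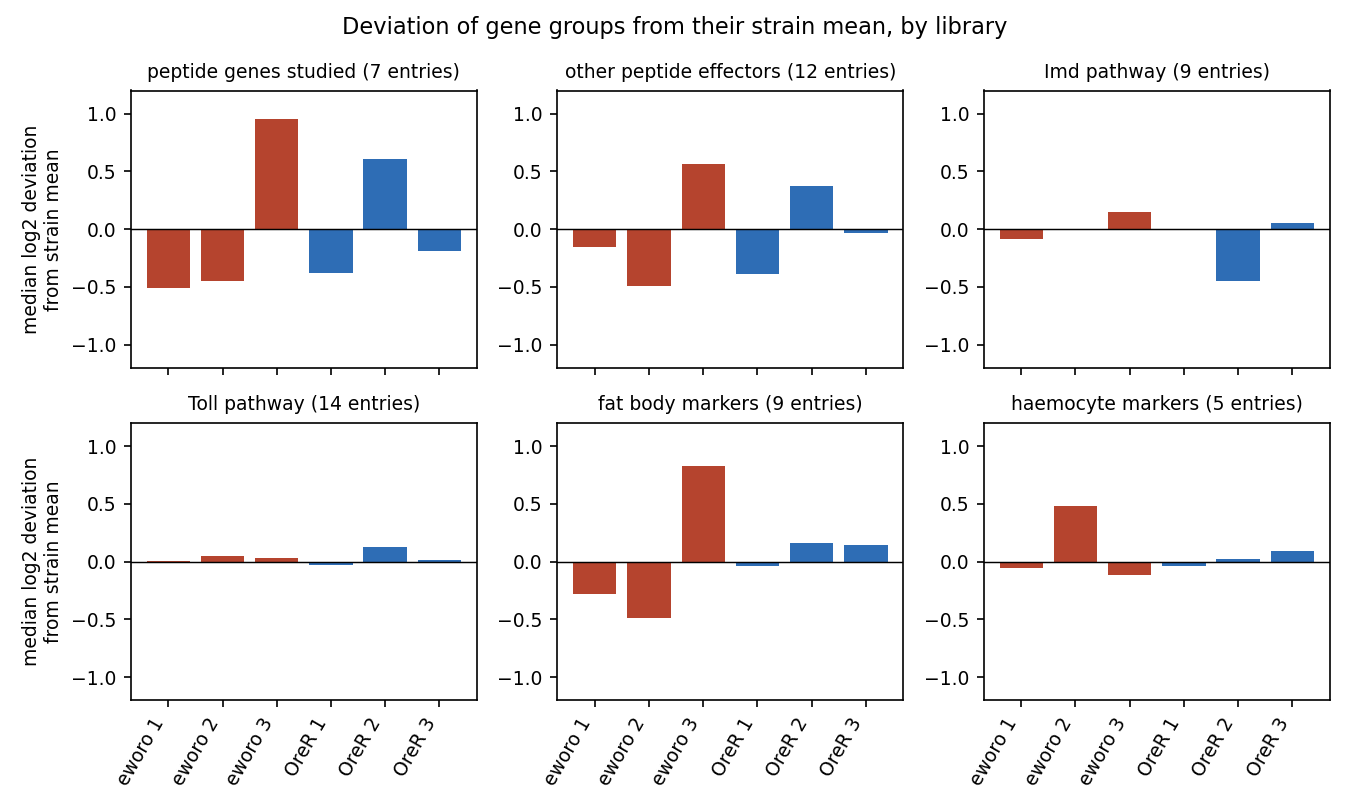
Median log2 deviation from the strain mean of 6 gene groups in each library, with eworo (red) left of OreR (blue) and the number of compared entries in each title. The peptide genes studied and the other peptide effectors are highest in eworo replicate 3 and OreR replicate 2, the fat body markers in eworo replicate 3, and the Toll pathway is near 0 in all libraries.

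The same libraries stood high for other effector genes. Of 36 further peptide and lysozyme genes listed, 12 entries were compared, and none was called by limma. Replicate 3 was the highest eworo library for 8 of the 12 (24.5% of all entries), replicate 2 the highest OreR library for 7 (38.3% of all entries), and both held for 6 (10.7% of all entries). Of these, *IM4* stood at 9.60 FPKM in eworo replicate 3 and at most 1.04 FPKM in any other library. *IM14* stood at 4.82 FPKM there and at most 0.710 FPKM in any other. Both passed the filter only through eworo replicate 3, so their place in the count for that library was fixed by the filter. *DptA*, the paralogue of *DptB*, had 3.24, 4.25 and 13.3 FPKM in eworo, against 0.925, 6.89 and 3.17 FPKM in OreR. *CecB* had 7.60, 5.99 and 21.9 FPKM in eworo, against 7.60, 20.4 and 10.9 FPKM in OreR. Both genes thus stood highest in the same library of each strain as *DptB* and *Mtk*. The lysozyme gene *LysC* did not, with 22.8, 1.53 and 0 FPKM in eworo, against 0, 12.01 and 13.4 FPKM in OreR. Its 0 values can be failed estimates, and the authors' table gave it 5.80 in eworo and 3.59 in OreR. *IM33* had 5.16, 2.32 and 9.23 FPKM in eworo, against 2.53, 4.45 and 7.06 FPKM in OreR. The median log2 difference between strains over the 12 entries was 0.40, and 3 of them had an unadjusted limma p below 0.05, all higher in eworo, beside 441 higher and 299 lower of 4848 entries.

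Of the signalling genes upstream, 1 entry stood highest in both of these libraries. Of 29 Imd pathway genes listed, 9 entries were compared and none was called by limma, with 0 at an unadjusted p below 0.05 and a median log2 difference of 0.13. Of 26 Toll pathway genes, 14 were compared and none was called, with 2 at an unadjusted p below 0.05, both lower in eworo, and a median of -0.13. Replicate 3 was the highest eworo library for 7 of the 9 Imd and 3 of the 14 Toll entries (24.5% of all entries). Replicate 2 was the highest OreR library for 1 of the 9 and 8 of the 14 (38.3% of all entries). Both held for 1 of the 9 and 0 of the 14 (10.7% of all entries). An exact 0, which can be a failed estimate, was found in 3 of the Imd and 3 of the Toll entries, so the ranks of those are uncertain. The entries of *IKKbeta*, *POSH*, *pll* and *SPE* are joined with genes outside these lists, so their ranks are not those of the listed gene alone. The *POSH* entry had 271, 254 and 306 FPKM in eworo, whereas the authors' table gave *POSH* by itself 18.1 in eworo. Among the Toll entries with the highest means, *GNBP3*, which encodes a sensor of fungal glucans, had 407, 333 and 371 FPKM in eworo, against 377, 425 and 339 FPKM in OreR, and *cact*, which encodes the inhibitor of Dorsal and Dif, had 88.7, 84.9 and 73.0 FPKM in eworo, against 98.1, 118 and 99.2 FPKM in OreR. The sensor gene *PGRP-SD*, named after its values were seen, was listed at 0 in 5 libraries and at 15.9 FPKM in eworo replicate 3. It passed the filter only through that library, so its place in the count for eworo replicate 3 was fixed by the filter. The authors' table gave it 9.82 in eworo and 2.69 in OreR. *Rel*, which encodes Relish, was joined differently between libraries and not compared. The authors' table gave it 20.4 in eworo and 35.9 in OreR. The stress peptide genes of the Turandot family were compared for 3 of 8 genes. All 3 were highest in replicate 3 among the eworo libraries (24.5% of all entries). Replicate 2 was the highest OreR library for 2 of the 3 (38.3% of all entries), and both held for 2 (10.7% of all entries). *TotA* was highest in eworo replicate 3 but not in OreR replicate 2, with 12.8, 13.2 and 27.0 FPKM in eworo, against 10.1, 14.4 and 16.6 FPKM in OreR.

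Markers of the fat body were also high in eworo replicate 3. Of 12 fat body markers 9 were compared, and 7 of the 9 were highest in eworo replicate 3 (24.5% of all entries). Of the 9 markers, 3 were highest in OreR replicate 2 (38.3% of all entries) and 3 in both libraries (10.7% of all entries). Their summed level was 338, 276 and 642 FPKM in eworo, against 363, 378 and 465 FPKM in OreR, and that of the 7 peptide entries was 112, 112 and 308 FPKM in eworo, against 127, 237 and 169 FPKM in OreR. *Fbp1*, a storage protein receptor gene, had 35.1, 39.8 and 95.8 FPKM in eworo, against 10.6, 33.6 and 35.2 FPKM in OreR. *Lsp2*, a storage protein gene, had 172, 117 and 233 FPKM in eworo, against 253, 199.5 and 262 FPKM in OreR. *apolpp* was listed at 0 in all eworo libraries and at 12.1, 2.99 and 19.3 FPKM in OreR. The authors' table gave it 9.66 in eworo and 13.8 in OreR, so the 0 was not a level that the other table shared. Of 12 haemocyte markers 5 were compared, and none was highest in eworo replicate 3. Their sum was 90.3, 86.5 and 52.4 FPKM in eworo, against 78.7, 114 and 64.4 FPKM in OreR, where *crq* was listed at 0 in replicate 3 of both strains, and *PPO1* and *PPO2*, which mark crystal cells, did not exceed 0.122 FPKM in any library. The part of fat body in the profile of the peptide genes was not tested, and more cells of a type cannot be told apart from more RNA per cell in bulk legs.

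Genes whose 6 library values were most like those of *Dro* were *hdly* (r = 0.981), *beat-IIa* (0.972), *CG43351* (0.971), *blanks* (0.970) and *CG17734* (0.969), given as a description over 6 libraries. Each was lower in all eworo libraries, as with *hdly* at 39.6, 40.3 and 49.3 FPKM in eworo, against 135, 173 and 161 FPKM in OreR. None is among the listed immune genes. Those most like the *Drs* entry were *CG43341* (r = 0.991), *Aplip1* (0.989), *CG11400* (0.983), *CG6184* (0.977) and *CG4962* (0.971), and of these *CG11400* had 1.78, 1.60 and 3.08 FPKM in eworo, against 1.64, 1.09 and 0.443 FPKM in OreR.

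Some of these genes had an accessible site by the peak lists. ATAC-Seq cuts open chromatin with a transposase, and the authors called 1 list of peaks per strain on pooled samples, 44398 in eworo and 42015 in OreR, so no test was possible. Within the gene span widened by 500 bp on each side, 3 of the 10 genes had a peak in eworo and 4 in OreR, beside 70.9% of all genes in eworo and 69.1% in OreR, or 47.6% in eworo and 44.8% in OreR among genes of at most 1000 bp, as all 10 are. *Dro*, *AttD* and *Drs* had peaks in both strains and *AttC* in OreR alone. The strongest lay within *Dro*, with a summit pileup of 56 tags in eworo and 70 tags in OreR, a fold over local background of 2.43 in eworo and 2.87 in OreR, and a −log10 q of 7.24 in eworo and 11.6 in OreR. The pileups are not scaled between strains. *Def* had no peak in either strain, nor did *Mtk*, *DptB*, *CecA1*, *AttA* or *AttB*. No peak in these lists says only that none passed the threshold of the authors.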

How the data were processed

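The authors aligned stranded paired-end mRNA reads with TopHat2 (2.1.1 in the submitters' processing notes) and deposited FPKM per gene and library from Cufflinks (2.2.1), without scaling between libraries. Their Cuffdiff files hold 1 FPKM per strain, which is quoted above as the authors' value, and fold changes with p and q, which were not used. For ATAC-Seq the authors deposited MACS2 (2.1.1.20160309) peak lists per strain, from pooled samples, with the signal (pileup) at the summit, the fold over background, and the q-value as −log10.

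FPKM were divided by the median of ratios to the geometric mean, 1 was added, and log2 values were fitted by strain with limma 3.58.1 in R 4.3.3 (trend in the variance), over entries with a mean above 1 FPKM, with Benjamini-Hochberg adjustment and a threshold of 0.05. The pseudocount understates differences of low genes. The fit was tested on simulated data. Exact permutations and correlations used scipy 1.17.1, over 720 pairings of 6 libraries or 36 within strains. Peaks counted with an overlap of 1 bp or more. The gene span replaced the planned window around the start site, since the annotation used (Release 6) gives no strand. The genes and lists were chosen with earlier results of these data known, and a few double names were removed from the list of peptide effectors afterwards. All 10 genes were named, and the 5 single genes most like *Drs* and *Dro*. Entries named from the other lists were drawn from the 4 with the highest mean FPKM, and not always all 4 were named. Exceptions were the 5 epidermal genes and genes named for their joined entries. *IM4*, *IM14*, *PGRP-SD*, *Rel*, *apolpp*, *PPO1* and *PPO2* were named after their values were seen. No sequences are shown.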

Additional observations from a re-analysis of the deposited data

How the results depend on the processing

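No member changed direction under any of the 15 alternatives, which varied the pseudocount, filter, scaling, reading of joined entries and of zeros, variance prior, replicate block and libraries. The number of members called was 1 (*Dro*) and fell to 0 with no filter (*Dro* limma adjusted p = 0.0938) and with the replicate block (0.161), and ranged from 0 to 1 when each library was left out. *Dro* was called under 8 of the 15. All entries called were 128, 27 with the replicate block, and 67 to 151 with each library left out. Same-numbered libraries of the strains had correlations of deviations of -0.0372, -0.109 and 0.0504, and no library correlated best with its own number. No pairing by number was seen, but so few libraries cannot settle whether the same numbers mark a shared collection. The median r over pairs was 0.687, and it was 0.543 by Spearman rho, 0.904 on deviations from strain means, 0.983 with the replicate block removed as well, 0.420 to 0.736 with each library left out, and 0.404 without eworo replicate 3 and OreR replicate 2, a setting chosen after seeing the data. Members with a peak were 3 in eworo and 4 in OreR, and 0 in eworo and 1 in OreR at a −log10 q of at least 10. On the gene span only, also chosen after seeing the data, they were 1 in eworo and 3 in OreR. The cause of these changes was not tested. A narrower planned window around the start site was not run, as no strand was given.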
